A study of Mus musculus with 48 samples.

Results

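Imprinted fetal growth genes are expressed mainly from one parental copy and act on the size of the embryo and its organs. The 10 described here are H19, Igf2, Dlk1, Meg3, Cdkn1c, Mest, Peg3, Plagl1, Grb10 and Nnat, taken by gene symbol from the 37583 genes of the deposited mouse liver expression table. All 10 were found once in the table, and all 10 were among the 17771 genes kept for testing, which required 10 or more normalized reads in 2 or more libraries. RNA sequencing covered 8 livers of F1 mice of C57Bl6/CBA background: 3 wild type (WT), 3 C/EBPa lox/lox with Alfp-Cre and 2 HNF4a lox/lox with Alfp-Cre. In both knockouts Cre is driven by the liver-lineage Alfp promoter, so only cells of that lineage are meant to lose the gene. Whether the WT mice carried lox sites or Cre is not given in the sources used here. The sample labels give the RNA livers an age of 60 days, whereas the series text places them at embryonic day 18.5 (E18.5). C/EBPα and HNF4α are transcription factors of hepatocytes, encoded by Cebpa and Hnf4a. Their binding was mapped by chromatin immunoprecipitation sequencing (ChIP-seq) in liver at 2 embryonic stages (E15.5 and E18.5), within a day of birth (P0.5) and on postnatal days 14 (P14) and 60 (P60), with 2 replicates per factor and stage.

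Imprinted genes lie in clusters, in which a differentially methylated control region decides which parental copy is transcribed, and genes read from opposite parental copies often have opposing effects on growth. In one such cluster the paternally expressed Igf2, which encodes insulin-like growth factor 2, lies beside the maternally expressed non-coding RNA H19, and both are served by shared enhancers downstream of H19. In another, the paternally expressed Dlk1 lies beside the maternally expressed non-coding RNA Meg3. Most of these genes are abundant in fetal liver and are silenced after birth. The RNA values sum both parental copies, so none of the values below measures imprinting itself.

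RNA values are reads divided by a size factor for each library and rounded by the authors, called normalized reads here, and their totals ranged from 13448347 to 25992243 per library. The 10 genes took between 2.16% and 6.56% of these totals, of which H19 was the largest part. Cebpa, the gene deleted in the first knockout, had 9999, 9594 and 5511 reads in the WT libraries against 322, 419 and 998 after its deletion. Hnf4a had 9098, 4948 and 6718 reads in WT libraries and 1238 and 2444 after its own deletion, with 2492 to 4510 after deletion of Cebpa. HNF4α knockout replicate 1 had a sum over 15 skeletal muscle markers of 699624, against 294 to 2092 in the other libraries. Hepatocyte markers summed to between 3090994 and 4534246 in WT, 298395 and 1058152 in the C/EBPα knockout, and 1368021 and 1828631 in the HNF4α knockout. The Y-linked gene Ddx3y was at 1317 in WT replicate 1 and at 6 to 109 in the other libraries. The X-linked RNA Xist varied within every group: 92, 5915 and 27836 in WT, 21957, 4470 and 13318 in the C/EBPα knockout, and 1040 and 3941 in the HNF4α knockout. In whole liver, fewer cells of a type and less RNA per cell cannot be told apart.

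Of the 10 genes, 1 passed the test in each knockout, and it was a different gene in each. Loss of HNF4α raised Nnat about 97.9-fold over WT, and loss of C/EBPα raised Meg3 5.62-fold. By the test 0 members fell in either knockout. At an unadjusted limma p under 0.05 there were 4 members in each, of which 1 was lower, Grb10 (0.00678 and 0.00279). The others, Dlk1, Meg3 and Nnat, were higher in both knockouts. The share of all genes at that threshold was not counted. For scale, a p of 0.072 ranked 3089 of 17771 in the C/EBPα knockout, and 0.0765 ranked 4572 in the HNF4α knockout. The test was limma on log2(normalized reads + 1) across all genes tested, two-sided, with a Benjamini-Hochberg adjusted p under 0.05 as the threshold. In the C/EBPα knockout 3.75% of all genes tested passed, 0.883% higher and 2.86% lower than WT. In the HNF4α knockout 4.7% passed, 1.54% higher and 3.17% lower. The count of 1 in 10 members stands beside these shares, and the median log2 change of the 10 was 0.48 and 0.47, against 0.03 and 0.02 over all genes tested. Scaled to equal library totals, the share of C/EBPα calls that were lower went from 76.4% to 40.6%. Both comparisons use the same 3 WT libraries.

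**Figure D1:**
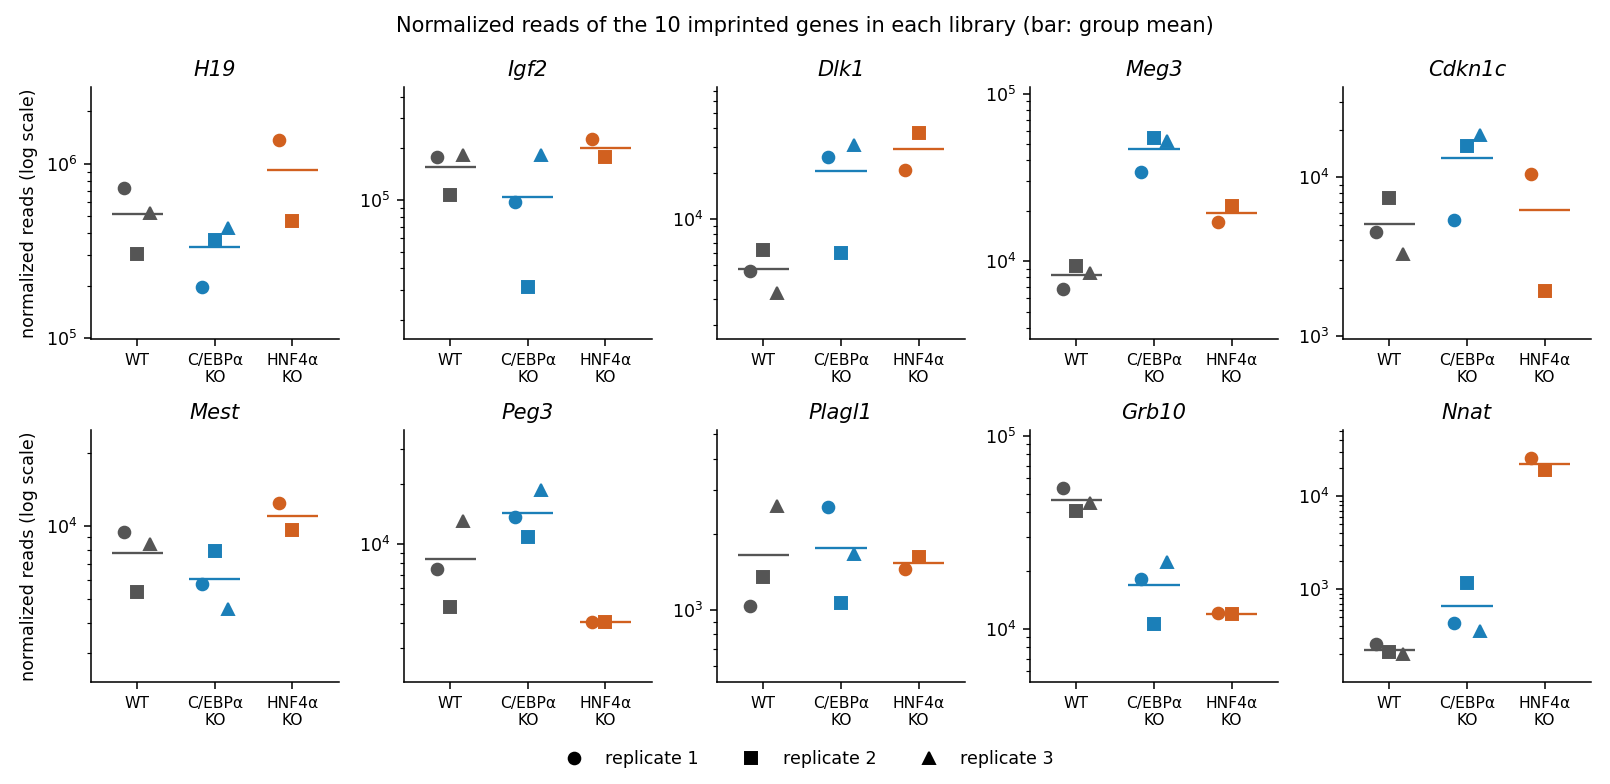
Normalized reads of the 10 genes on a log axis, 1 point per library, with marker shape for the replicate and a bar for the group mean of 3 WT, 3 C/EBPα knockout (KO) and 2 HNF4α KO libraries. Both HNF4α KO points of Nnat, 25570 and 18922, lie far above WT, the 3 C/EBPα KO points of Meg3 lie above all others, and all knockout points of Grb10 lie below WT.

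Values that did not overlap between groups were found more often than passed tests. In the C/EBPα knockout, 3 of the 10 genes had all values outside the WT range (Meg3 and Nnat higher, Grb10 lower), as had 18.8% of all genes tested, 8.54% higher and 10.3% lower. With only 2 HNF4α knockout libraries, 6 of 10 did (Nnat, Dlk1, Meg3 and Mest higher, Grb10 and Peg3 lower), as had 44.6% of all genes tested, 22.1% higher and 22.4% lower. Between the knockouts 5 of 10 did not overlap (Meg3 and Peg3 higher in the C/EBPα knockout, H19, Mest and Nnat lower), as was so for 34.4% of all genes tested, 17.4% higher and 17% lower. Meg3 and Nnat were higher than every WT library in both knockouts, a pattern shared by 4.06% of all genes tested. Grb10 was lower in both, as were 6.55% of all genes tested. The most upstream RefSeq promoter of each of these 3 genes (build GRCm38.p6, from 250 bases before to 50 after an annotated start) is printed because only these members lay on 1 side of the WT range in all 5 knockout libraries, with any match to the HNF4 letters CAAAGNNCA or the C/EBP letters TTGCNNAA, on either strand, in capitals.
Nnat, chr2:157559828-157560127, plus strand: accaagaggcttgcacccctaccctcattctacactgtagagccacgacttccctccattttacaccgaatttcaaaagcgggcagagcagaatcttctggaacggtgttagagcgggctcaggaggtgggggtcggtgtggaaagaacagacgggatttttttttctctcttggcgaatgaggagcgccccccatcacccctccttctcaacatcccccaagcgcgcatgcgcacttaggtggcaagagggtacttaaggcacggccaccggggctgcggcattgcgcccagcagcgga
Meg3, chr12:109540746-109541045, plus strand: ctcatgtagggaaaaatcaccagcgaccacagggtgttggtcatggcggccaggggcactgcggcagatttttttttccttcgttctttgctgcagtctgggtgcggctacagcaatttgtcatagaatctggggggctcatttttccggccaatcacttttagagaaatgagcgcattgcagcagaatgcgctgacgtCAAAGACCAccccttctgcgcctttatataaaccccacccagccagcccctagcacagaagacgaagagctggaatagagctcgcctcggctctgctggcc
Grb10, chr11:12037371-12037670, minus strand: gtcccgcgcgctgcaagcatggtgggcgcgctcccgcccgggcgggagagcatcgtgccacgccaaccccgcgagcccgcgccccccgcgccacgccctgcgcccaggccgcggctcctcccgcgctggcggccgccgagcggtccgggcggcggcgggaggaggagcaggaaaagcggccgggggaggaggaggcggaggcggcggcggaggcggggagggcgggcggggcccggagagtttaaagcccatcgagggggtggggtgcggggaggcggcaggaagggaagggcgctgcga

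The printed Meg3 promoter held 1 match to the HNF4 letters, 51 bases before the start, and none to the C/EBP letters. RefSeq also gives Meg3 a second promoter (chr12:109545148-109545447) and Grb10 a second (chr11:12027922-12028221), and neither held a match. The printed windows of Nnat and Grb10 held none either. Of 32851 RefSeq promoters of the same length, 6.36% held the HNF4 letters and 10.8% the C/EBP letters. The printed Grb10 window held 45 CG dinucleotides, the sites of DNA methylation, more than 98.1% of promoters, while its second promoter held 9. Nnat had 17, and the 2 Meg3 promoters had 13 and 1. Over the 8 members with a RefSeq promoter (15 promoters in all; H19 and Cdkn1c were not matched), the other matches were 1 HNF4 match in Plagl1 and 1 C/EBP match in Mest.

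Nnat encodes neuronatin, a small proteolipid of the endoplasmic reticulum known from developing brain and pancreatic β cells and read from the paternal copy. It lies within Blcap, a gene on the opposite strand. Nnat had 261, 212 and 202 normalized reads in the WT libraries (225 ± 31.6, SD, n = 3). Loss of C/EBPα came with 437, 1176 and 359, and loss of HNF4α with 25570 and 18922. The 3 groups did not overlap, and both HNF4α knockout livers stood more than an order of magnitude above every other liver. The share of all genes with 3 such separate groups was not counted. The log2 change from WT was 6.61 ± 0.48 (SE) in the HNF4α knockout, with an adjusted p of 0.000171, which placed Nnat at rank 2 of 17771 genes by p and rank 14 by size. In the C/EBPα knockout it was 1.34 ± 0.43 with an adjusted p of 0.137. The difference between the knockouts was itself past the threshold: Nnat was 38.6-fold lower in the C/EBPα than in the HNF4α knockout (log2 -5.27 ± 0.48, adjusted p = 0.000761), a comparison in which Nnat was the only member to pass. Of all genes tested 3.48% passed there, 1.61% higher and 1.87% lower in the C/EBPα knockout.

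Blcap, the host gene of Nnat, did not pass in either knockout, with 605, 659 and 305 reads in WT libraries against 665 and 734 after loss of HNF4α. The 13 pancreatic endocrine markers summed to 53 and 133 in the HNF4α knockout, against 19 to 35 in WT, and 10 neuronal markers summed to 148 and 135, against 59 to 126. None of either list passed the test, and the insulin gene Ins2 had 0 and 7 reads in the HNF4α knockout. Of 11 stellate cell and fibroblast markers, which share Des with the skeletal muscle list, 4 passed as higher in the HNF4α knockout (Ngfr, Col1a1, Col1a2 and Acta2). The sum of the 11 was 11177 to 17591 in WT and 10330 to 21225 in the C/EBPα knockout, where it overlapped WT. It was 96807 and 38159 in the HNF4α knockout. Macrophage markers summed to 26387 and 31328 there, against 13667 to 16110 in WT (1 of 9 passed as higher), and pancreatic acinar markers to 847 and 742, against 251 to 523 (0 of 4 tested). The sums of erythroid, endothelial and bile duct markers in both HNF4α knockout livers also lay above all WT sums, with 0 members passed. Skeletal muscle markers summed to 699624 and 889 in the HNF4α knockout, against 330 to 513 in WT. Of 14 tested, 1 passed as higher there, and 13 were higher at an unadjusted limma p under 0.05. The part of these cell types in the Nnat result was not tested. Replicate 2 of the HNF4α knockout had Nnat at 18922. Without replicate 1 the log2 change was 6.40 (adjusted p = 0.00459), in a fit that assumes the lone remaining library varies like the other groups. The genes whose log2 values followed Nnat most closely over the 8 libraries were Ppp1r1a (Pearson r = 0.993), Syt7 (0.988) and C130021I20Rik (0.986), of 17770 genes. This is a description of 8 libraries in which 2 stand apart.

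The Dlk1-Meg3 domain holds Dlk1, a transmembrane protein related to Notch ligands that marks hepatoblasts, and Rtl1, a retrotransposon-derived gene needed in placenta, both read from the paternal copy. Meg3, Rian and Mirg are non-coding RNAs read from the maternal copy. Meg3 had 6854, 9346 and 8537 normalized reads in the WT libraries, 34113, 54550 and 52299 in those of the C/EBPα knockout and 17052 and 21468 in those of the HNF4α knockout. The groups formed 3 separate levels, with WT lowest and the C/EBPα knockout highest. How many of all genes tested had 3 separate groups was not counted. Meg3 rose by log2 2.49 ± 0.42 in the C/EBPα knockout (adjusted p = 0.00672), and in the HNF4α knockout the log2 change was 1.23 ± 0.47 (adjusted p = 0.175). The call in the C/EBPα knockout was lost without WT replicate 1 (adjusted p = 0.0758) and without WT replicate 3 and C/EBPα knockout replicate 1 together (0.0657), with log2 changes of 2.36 and 2.74. The difference of 1.27 ± 0.47 between the knockouts did not pass (adjusted p = 0.187).

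Dlk1 measured 4553, 6236 and 3248 in WT libraries, 25481, 5962 and 30672 in C/EBPα knockout libraries and 21139 and 36836 in HNF4α knockout libraries. C/EBPα knockout replicate 2 lay within the WT range, while the other 4 knockout livers were well above it. The log2 change was 1.89 ± 0.61 in the C/EBPα knockout (adjusted p = 0.144) and 2.63 ± 0.68 in the HNF4α knockout, where the adjusted p was 0.0528. Without C/EBPα knockout replicate 2 both changes were 2.63 and passed, with adjusted p of 0.00961 and 0.00652. Without C/EBPα knockout replicate 3, which enters only the spread of the HNF4α comparison, Dlk1 passed there too (0.0309). Over all fits without a single library the log2 change lay between 1.45 and 2.63 in the C/EBPα knockout. In the HNF4α knockout it lay between 2.23 and 3.03. Neither change passed in each of these fits. C/EBPα knockout replicate 2 also had the lowest hepatocyte marker sum (298395) and the highest bile duct marker sum (43242, against 19436 to 26755 in WT), and in it Sox9, a bile duct marker, was at 5477. The bile duct list had 4 of 9 members higher in the C/EBPα knockout by the test. Its part in the Dlk1 and Meg3 values was not tested.

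Of the other genes of the domain, Mirg rose in both knockouts by the test. From 171, 133 and 158 reads in WT libraries it went to 639, 337 and 428 without C/EBPα (log2 1.55 ± 0.35, adjusted p = 0.032) and to 513 and 698 without HNF4α (1.96 ± 0.39, 0.0156). All 5 knockout values lay above all WT values, as for 4.06% of all genes tested. The C/EBPα call was lost when any 1 of 6 libraries was left out, all but C/EBPα knockout replicates 2 and 3 (adjusted p 0.0596 to 0.132). The HNF4α call was lost without WT replicate 1 or without either HNF4α knockout library (0.0578 to 0.13). Rian had 4096, 2337 and 5024 normalized reads in the WT libraries, 15726, 5738 and 7584 in those of the C/EBPα knockout and 7191 and 6759 in those of the HNF4α knockout, with adjusted p of 0.185 and 0.313. Rtl1 measured 35, 24 and 20 in WT libraries, 134, 94 and 148 in C/EBPα knockout libraries and 306 and 60 in HNF4α knockout libraries, with adjusted p of 0.0779 and 0.0734. For both genes every knockout value exceeded every WT value, as for 4.06% of all genes tested, and neither passed the test. The domain also carries a large array of microRNA hairpins within its maternal transcripts. Summed over 56 annotated hairpin genes between Dlk1 and the end of Mirg, the normalized reads were 40, 21 and 27 in WT. They were 110, 483 and 329 in the C/EBPα knockout, and 163 and 91 in the HNF4α knockout. All knockout sums lay above all WT sums, and how often sums of other genes did so was not counted. Single hairpins had few reads, such as Mir136 at 0, 51 and 0 in the C/EBPα knockout. These reads come from an RNA library and do not measure mature microRNAs.

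**Figure D2:**
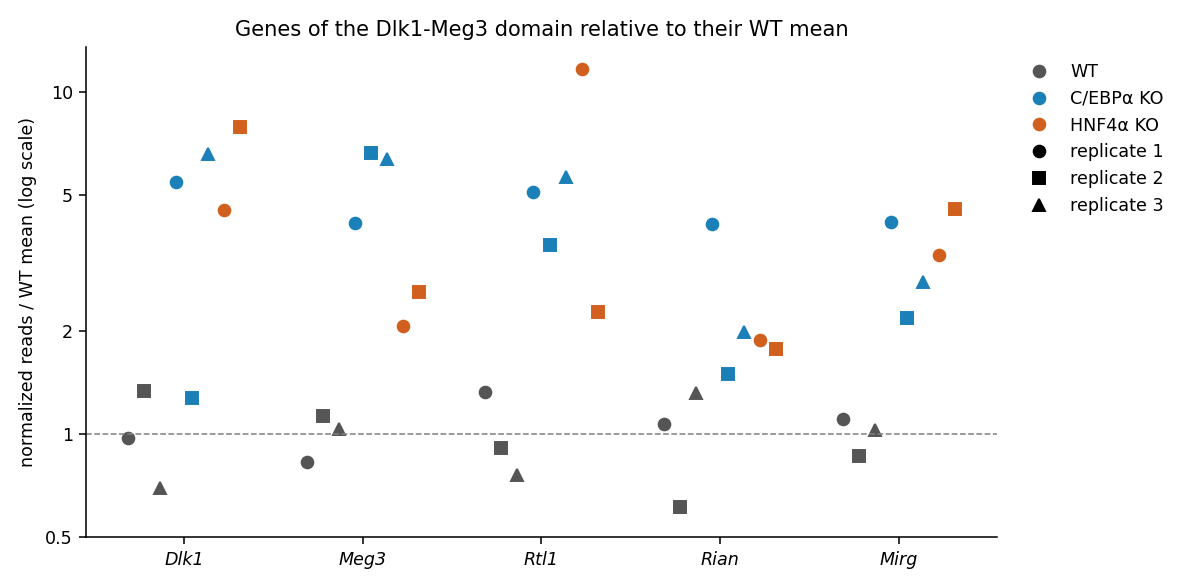
Normalized reads of 5 genes of the Dlk1-Meg3 domain divided by each gene's WT mean, on a log axis, 1 point per library, coloured by group, with marker shape for the replicate. Every knockout library lies above every WT library for Meg3, Rtl1, Rian and Mirg, and for Dlk1 the exception is C/EBPα KO replicate 2 at 1.27 times the WT mean.

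The Igf2-H19 pair showed wide spread and no passed test. H19, a non-coding RNA that carries the hairpin of miR-675, had 724668, 303520 and 524635 normalized reads in the WT libraries, 197475, 367219 and 428151 in those of the C/EBPα knockout and 1374011 and 470704 in those of the HNF4α knockout. The highest value belonged to HNF4α knockout replicate 1, the liver with muscle markers, and replicate 2 lay inside the WT range. The log2 change was -0.63 ± 1.21 in the C/EBPα knockout (adjusted p = 0.888) and 0.72 ± 1.35 in the HNF4α knockout (0.792), with 95% intervals of -3.29 to 2.03 and -2.25 to 3.69. Without HNF4α knockout replicate 1 the second value was -0.049. The Mir675 hairpin was listed at 0 in all 8 libraries.

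Igf2, the fetal growth factor of the pair, measured 178393, 106407 and 183035 in WT libraries, 97070, 31060 and 184174 in C/EBPα knockout libraries and 226858 and 177270 in HNF4α knockout libraries. Both knockouts overlapped WT, and the lowest liver was C/EBPα knockout replicate 2. The log2 changes were -0.88 ± 0.85 (adjusted p = 0.74, 95% interval -2.76 to 1.00) and 0.40 ± 0.96 (0.838, -1.70 to 2.51). On leaving out 1 library the C/EBPα value lay between -0.18 (without C/EBPα knockout replicate 2) and -1.46 (without replicate 3). Igf2as, an antisense gene that overlaps Igf2, was at 159 to 447 in all libraries, and without a stated strand setting reads of both genes cannot be told apart. In the 8 libraries H19 was closest to Fes (r = 0.969), Rab6a (0.950) and Chst15 (0.947), and Igf2 to Col14a1 (0.978), Sh3pxd2a (0.976) and Ahnak (0.974). The nearest member to Igf2 was H19, at r = 0.546 and rank 2124 of 17770 genes, so the pair did not move closely together across these livers.

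Grb10 encodes an adaptor that binds the insulin and insulin-like growth factor receptors and restrains their signalling. It had 53291, 40462 and 44603 normalized reads in the WT libraries, 18055, 10574 and 22012 in those of the C/EBPα knockout and 12051 and 11846 in those of the HNF4α knockout. All 5 knockout livers lay below all WT livers, with means at 36.6% and 25.9% of the WT mean. The log2 change was -1.51 ± 0.45 in the C/EBPα knockout (adjusted p = 0.116) and -1.94 ± 0.51 in the HNF4α knockout (adjusted p = 0.0554), and neither passed. Without C/EBPα knockout replicate 2 or replicate 3, which enter the estimate of spread only, the HNF4α value passed (0.027 and 0.0315). Over all fits without a single library the HNF4α log2 change lay between -2.03 and -1.83, and it did not pass in each of them.

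Of 24 other genes of the insulin-like growth factor pathway, all tested, 1 rose and 1 fell in the C/EBPα knockout and 2 fell in the HNF4α knockout. Of all genes tested, 3.75% and 4.7% passed in these knockouts. Igfbp2, a binding protein that carries these growth factors in blood, had 16407, 26310 and 13550 reads in WT libraries against 169, 55 and 7446 after loss of C/EBPα. It fell by 5.44 ± 1.33 on the log2 scale (adjusted p = 0.0466), with replicate 3 far above the other knockout livers. Hmga2, a chromatin protein of fetal tissue, rose by log2 2.16 ± 0.51 (adjusted p = 0.0378), from 61, 112 and 150 to 801, 527 and 224. In the HNF4α knockout Insr, the insulin receptor, fell by 1.98 ± 0.44 (adjusted p = 0.0283) and Ghr, the growth hormone receptor, fell by 1.63 ± 0.39 (0.0408). Each of these 4 calls was lost on leaving out 1 of several libraries, 7 of the 8 for Igfbp2 (up to 0.164), 6 for Hmga2 (up to 0.198), 4 for Insr (up to 0.346) and 6 for Ghr (up to 0.247). Igf2r, the imprinted receptor that clears Igf2, did not pass, with 1727 to 2629 reads in WT libraries and 1062 to 4911 in the knockouts.

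Cdkn1c encodes p57, an inhibitor of cyclin-dependent kinases that slows cell division and is read from the maternal copy. It measured 4503, 7387 and 3305 in WT libraries, 5383, 15781 and 18539 in C/EBPα knockout libraries and 10511 and 1907 in HNF4α knockout libraries. The HNF4α knockout livers lay on either side of the WT range, and in the C/EBPα knockout 2 of 3 lay above it. The log2 changes were 1.28 ± 0.66 (adjusted p = 0.43) and -0.10 ± 0.74 (0.953). Phlda2, a maternally read growth restrainer within 100 kb of Cdkn1c, did fall in the HNF4α knockout. It had 251, 241 and 185 normalized reads in the WT libraries, 82, 73 and 171 in those of the C/EBPα knockout and 16 and 17 in those of the HNF4α knockout, a log2 change of -3.68 ± 0.51 (adjusted p = 0.00209). It was past the threshold in every alternative run for that contrast. Among 30 tested neighbours within 100 kb of a member's start, Phlda2 was the only one to pass in either knockout. Of all genes tested, 3.75% passed in the C/EBPα and 4.7% in the HNF4α knockout.

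Mest, Peg3 and Plagl1 are read from the paternal copy and did not pass in any comparison. Mest, which encodes an enzyme of the α/β hydrolase family, measured 9481, 5350 and 8467 in WT libraries, 5767, 7869 and 4549 in C/EBPα knockout libraries and 12437 and 9609 in HNF4α knockout libraries. The HNF4α knockout livers were the highest pair, by log2 0.53 ± 0.43 (adjusted p = 0.503). Peg3, a zinc finger protein, had 7473, 4809 and 13063 normalized reads in the WT libraries, 13730, 10853 and 18742 in those of the C/EBPα knockout and 4049 and 4043 in those of the HNF4α knockout. The knockouts lay on opposite sides, with log2 changes from WT of 0.86 ± 0.43 (adjusted p = 0.414) and -0.94 ± 0.48 (0.297). The difference between them, 1.80 ± 0.48, had an adjusted p of 0.0719. Plagl1, a zinc finger transcription factor, measured 1035, 1351 and 2594 in WT libraries, 2564, 1063 and 1677 in C/EBPα knockout libraries and 1458 and 1627 in HNF4α knockout libraries. Its groups overlapped throughout, and its log2 changes were 0.11 ± 0.42 and 0.00 ± 0.47, with 95% intervals of -0.81 to 1.03 and -1.03 to 1.03.

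**Figure D3:**
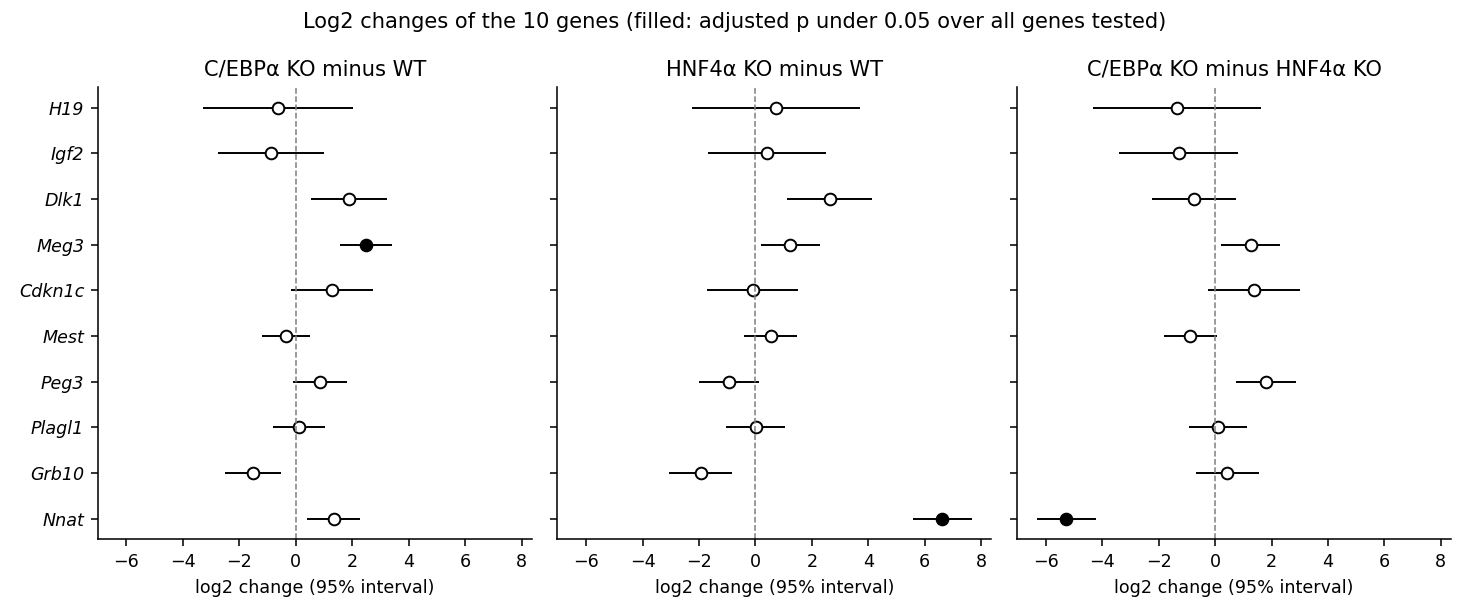
Log2 changes of the 10 genes (points) with 95% intervals from limma in the 3 comparisons, where filled points have an adjusted p under 0.05 over all genes tested. The filled points are Meg3 at 2.49 in the C/EBPα KO, Nnat at 6.61 in the HNF4α KO, and Nnat at -5.27 between the knockouts.

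Other imprinted genes were tested as a list. The table holds 48, of which 40 were tested. In the C/EBPα knockout 1 rose (Mirg) and 0 fell by limma, beside 0.883% and 2.86% of all genes tested. At an unadjusted p under 0.05, 6 were higher and 5 lower. In the HNF4α knockout 1 rose (Mirg) and 3 fell: Phlda2, Ddc, which encodes DOPA decarboxylase, and Slc38a4, an amino acid transporter. Of all genes tested, 1.54% rose and 3.17% fell there by the test. At an unadjusted p under 0.05, 8 of the list were higher and 4 lower in that knockout. Over all genes tested, an unadjusted limma p of 0.00989 (Dlk1) ranked 1223 of 17771 in the C/EBPα knockout. In the HNF4α knockout 0.0252 (Meg3) ranked 2556. Both values lie below 0.05, so these ranks are lower bounds for the number of genes under it. Peg3, whose unadjusted limma p was above 0.05 in both knockouts, ranked 3089 in the C/EBPα and 4572 in the HNF4α knockout. In each knockout the number of all genes under 0.05 thus lay between the lower rank and that of Peg3. The exact share was not counted, so the list counts at this threshold were not compared with it. Ddc fell by 2.33 ± 0.54 (adjusted p = 0.035) and Slc38a4 by 1.39 ± 0.35 (0.0499), and both calls were lost on leaving out single libraries, 4 of 8 for Ddc and 6 of 8 for Slc38a4. Between the knockouts, Phlda2 was higher in the C/EBPα knockout by log2 2.54 ± 0.51 (adjusted p = 0.022), a call lost without WT replicate 1, C/EBPα knockout replicate 1 or either HNF4α knockout library (up to 0.193). The median log2 change of the list was 0.07 in the C/EBPα and 0.23 in the HNF4α knockout, against 0.03 and 0.02 over all genes tested. Of 10 tested genes that maintain imprints or regulate fetal liver genes, such as Dnmt1, Trim28, Zfp57 and Ctcf, 0 passed by limma in any of the comparisons. At an unadjusted p under 0.05 they numbered 1, 1 and 2 in the C/EBPα, the HNF4α and the knockout comparison, again without a share of all genes.

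Binding was read from peak positions in build mm9. A region was taken as bound when peaks of both replicates of that stage overlapped by 1 bp or more. The pair of HNF4α lists for P0.5 held the same peaks and was treated as 1 list, so that stage has no replicate check. Within 10 kb of a start site, C/EBPα had a region at 8 of the 10 genes at some stage (80.7% of all genes tested) and HNF4α at 9 of 10 (63.9%). C/EBPα regions stood near 5 members at E15.5 (19.9% of all genes tested), 8 at E18.5 (65.7%), 8 at P0.5 (78.1%), 7 at P14 (49.6%) and 5 at P60 (50.5%). HNF4α regions stood near 9 members at E15.5 (49.6%), 3 at E18.5 (19.8%), 5 at P0.5 (41.1%), 4 at P14 (39.2%) and 2 at P60 (48.2%). The C/EBPα lists were shortest at E15.5 (13434 and 16900 peaks) and longest at P0.5 (107438 and 121624). For HNF4α the count was highest at E15.5 and lowest at P60, while the lists of those 2 stages were of similar length (39433 to 50864 and 46926 to 49395 peaks). With a window of 25 kb these 2 stages had 9 and 5 members (68.1% and 63.4% of all genes tested). With 100 kb both had 10 (89.7% and 86.8%). The low count at E18.5 came with replicates that shared few regions: 18359 of 53278 and 41199 peaks. The part of list length or replicate agreement in these counts was not tested. No test was made of these counts, because the 10 genes are not independent and the windows at Igf2 and H19, whose starts are 88.7 kb apart, belong to one domain.

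**Figure D4:**
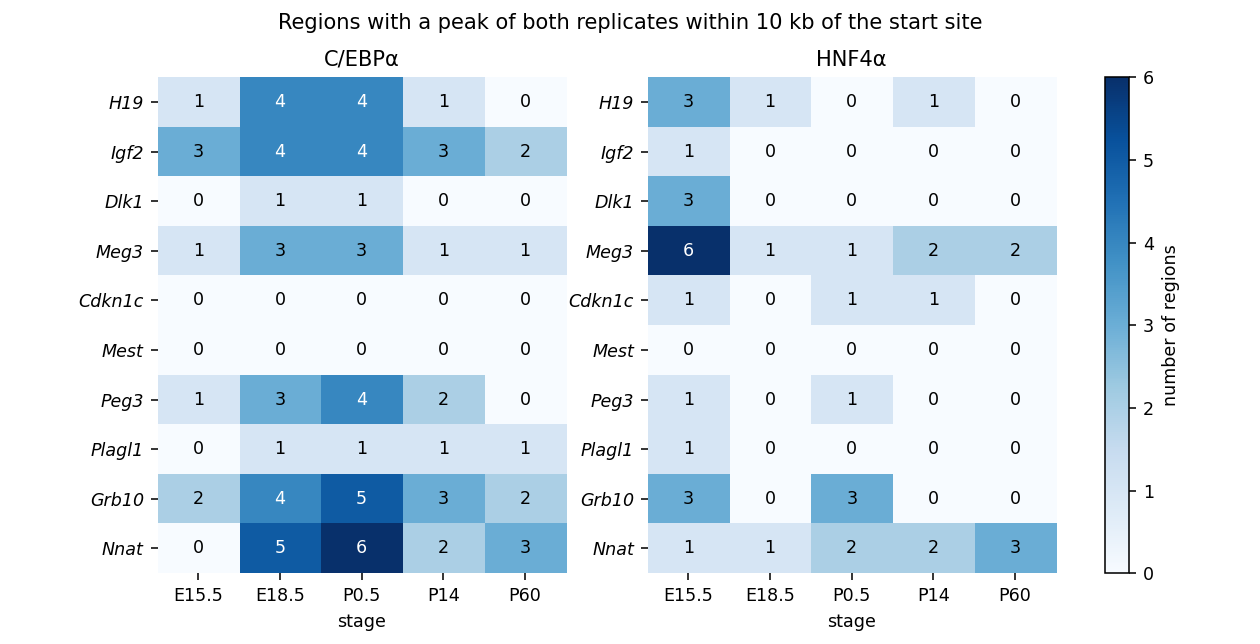
Number of regions with a peak of both replicates within 10 kb of each start site, for C/EBPα (left) and HNF4α (right), by stage. The HNF4α column at P0.5 rests on 1 list, because its replicate lists held the same peaks. HNF4α has 6 regions at Meg3 at E15.5 and 1 or 2 later, C/EBPα has most regions at E18.5 and P0.5, and Mest has 0 throughout.

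After merging across factors and stages, 38 regions had their centre within 10 kb of a start. Of these, 16 were bound by C/EBPα alone, 8 by HNF4α alone and 14 by both. C/EBPα held 4 regions at every stage and HNF4α held 2. Counted by gene, C/EBPα was near Igf2, Meg3 and Grb10 at every stage (17.9% of all genes tested) and HNF4α near Meg3 and Nnat (15.5%). Of the 22 regions with HNF4α, 12 were bound by it at E15.5 only, and of the 30 with C/EBPα, 16 were bound by it at no stage other than E18.5 or P0.5. C/EBPα held 24 of the regions at E18.5, 27 at P0.5 and 8 at P60, and HNF4α held 19 at E15.5 and 5 at P60.

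One region was bound by both factors at all 5 stages, and it lay 9.21 kb upstream of Meg3 (chr12:110769465-110770532). A second region 7.39 kb upstream of Meg3 had HNF4α at E15.5, P14 and P60. At the Meg3 start itself C/EBPα had a region at E18.5 only (chr12:110778927-110779337). Within 10 kb of Dlk1 no region was bound by either factor at more than 1 stage: HNF4α covered its start at E15.5 only (chr12:110690831-110691328), with further HNF4α regions 0.769 and 3.13 kb upstream at that stage. C/EBPα was found within 10 kb of Dlk1 at E18.5 and P0.5, in 1 region each. Beyond that limit, 16.1 kb upstream (chr12:110674287-110675597), HNF4α was bound at all 5 stages and C/EBPα at E18.5 and P0.5.

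At Nnat, HNF4α was bound at all 5 stages 9.53 kb upstream (chr2:157375741-157376835), and C/EBPα was found there at E18.5 and P0.5. Within the Nnat gene C/EBPα was bound at E18.5, P0.5, P14 and P60, 0.591 kb from the start (chr2:157386087-157386722), where HNF4α had no region at any stage. A region 9.83 kb downstream had C/EBPα at those 4 stages and HNF4α at P0.5, P14 and P60, and it lies 1.37 kb inside the start of Blcap. A region 6.55 kb from the start (chr2:157391947-157392776) had HNF4α at P60 and C/EBPα at E18.5 and P0.5. Within the gene body of Nnat HNF4α had no region.

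Within 10 kb of H19 the region bound at the most stages lay 8.81 kb downstream of its start (chr7:149754656-149755811), on the side where its enhancers are known to lie. It was bound by C/EBPα at E15.5, E18.5, P0.5 and P14 and by HNF4α at E15.5, E18.5 and P14. At P60 neither factor had a region within 10 kb of H19. Farther out, 42.3 kb downstream (chr7:149720952-149722509), HNF4α was bound at all 5 stages. That region lies inside another gene, Mrpl23 (chr7:149718704-149726652). At Igf2, by contrast, C/EBPα was bound at all 5 stages in 2 regions, 4.51 kb inside the gene (chr7:149847444-149848984) and 5.5 kb upstream (chr7:149857895-149858547). HNF4α was found within 10 kb of Igf2 only at E15.5, 2.15 kb from the start. RefSeq gives Igf2 several promoters, in another build, and these distances are from the start in the expression table alone.

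Grb10 had C/EBPα over its start at all 5 stages (chr11:11938428-11939249), joined by HNF4α at E15.5 and P0.5. The table's Grb10 is 1246 bases longer than that of RefSeq, so this region cannot be placed on the printed promoter, which is of another build. Peg3 had C/EBPα 2.28 kb upstream at 4 stages, all but P60, and Plagl1 had C/EBPα 8.54 kb inside the gene at all but E15.5. Cdkn1c had no C/EBPα region within 10 kb, and 1 region of HNF4α 4.46 kb from its start at E15.5, P0.5 and P14. Mest had none of either factor within 10 kb or in its gene body, with the nearest 31.1 kb from the table's start. The table's Mest spans 24911 bases and that of RefSeq 14961, so these annotations differ in extent. Expression was measured in 1 set of livers and binding at 5 stages, so how binding at a given stage relates to the change in the knockouts was not tested.

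**Figure D5:**
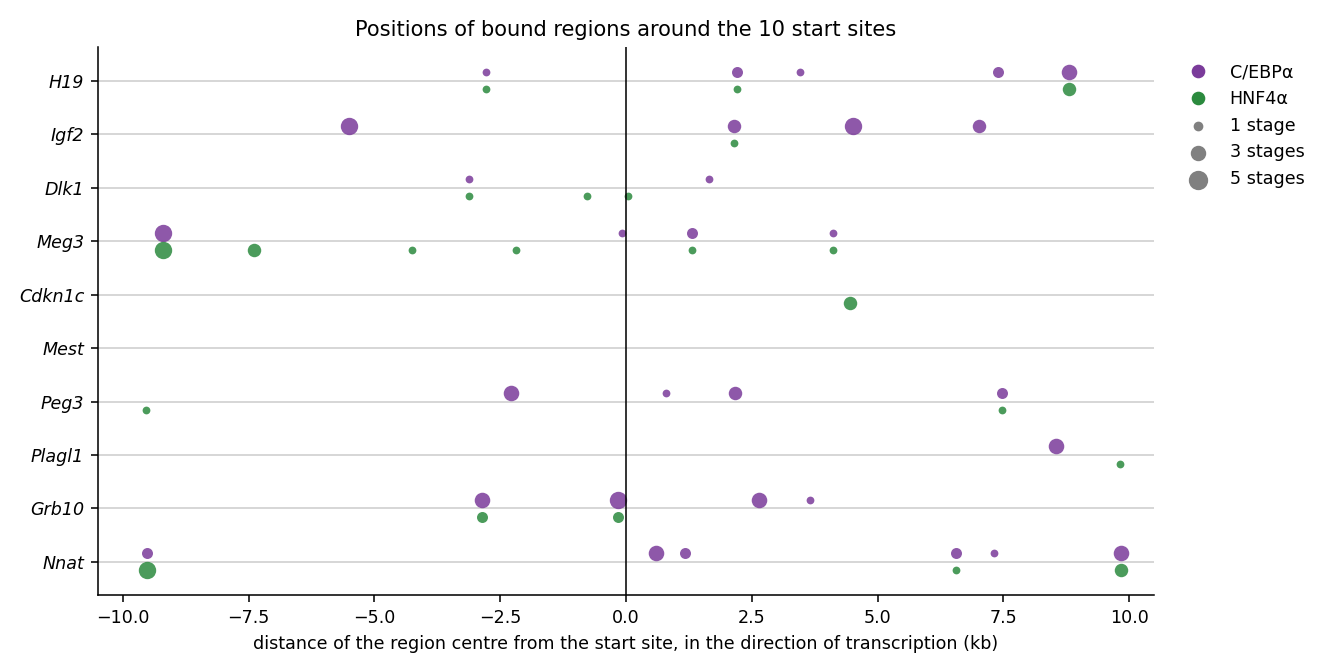
Centres of bound regions within 10 kb of the 10 start sites, by distance in the direction of transcription, with C/EBPα above and HNF4α below each line and point size for the number of stages. The largest points of both factors coincide at 9.21 kb upstream of Meg3, HNF4α holds 5 stages at 9.53 kb upstream of Nnat, and the Mest line is empty.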

How the data were processed

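The deposited RNA values are a score per gene: reads that the authors normalized with DESeq and rounded to whole numbers, per the file headers. The authors' peak lists give positions in mm9, and since every entry of their score column is 0, peak heights were not compared. The submitters' processing notes name MACS 1.4, BWA and TopHat2 without linking each to a file; the annotation version and the strand setting are not given in the sources used here. Because the values are normalized, a count model was not used. Genes with at least 10 in at least 2 libraries (17771 of 37583) were fitted with limma 3.58.1 (trend, R 4.3.3) on log2(value + 1), all 8 libraries in 1 fit, two-sided, adjusted over all genes. Peak regions were merged with Python 3.11.15. The fit was run on simulated data with independent normal noise and planted changes. These data held no outlying library, so they do not test how the fit handles one. The members, lists and tests were chosen with earlier results of these data known. All 10 members are named, as are list genes and neighbours that passed, and the 3 closest genes by correlation for Meg3, Nnat, H19 and Igf2 (those of Meg3 were Lig1, Arhgap8 and Arhgap22, r = 0.978, 0.976 and 0.968). Nothing beyond the labels says that replicates are separate litters, so p-values measure the spread between these samples. RNA polymerase II and input samples were not used here. Alternatives covered the pseudocount, filter, scaling, spread, libraries, window and overlap.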

Additional observations from a re-analysis of the deposited data

How the results depend on the processing

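Nnat passed in the HNF4α knockout and between the knockouts in all 17 alternatives of each. The number of members called in the C/EBPα knockout, 1, was 3 with equal library totals (Dlk1 and Nnat added, with the median of all genes shifted by 0.53), 0 without both WT replicate 3 and C/EBPα knockout replicate 1 (left out together for a trend with GC content in earlier results, not examined here), and 0 to 2 without single libraries. In the HNF4α knockout it was 3 with a minimum of 50 or with only the groups compared, 2 with equal totals, equal upper quartiles or robust spread, and 1 to 3 without single libraries, from Dlk1 and Grb10. Between the knockouts it was 3 with equal totals (Meg3 and Peg3 added, median of all genes shifted by 0.57). Calls over all genes moved more. C/EBPα calls, 666, were 219 without both of these libraries and 309 to 801 without single ones. HNF4α calls, 836, were 1267 with only the groups compared, 350 without both and 212 to 1345 without single libraries, lowest without HNF4α knockout replicate 1. Calls between the knockouts, 619, were 403 without a filter, 320 with only the groups compared, 136 without both and 86 to 849 without single libraries. With a replicate block the 836 and 619 became 486 and 288; same-numbered libraries correlated at -0.231 to 0.19, so the numbers do not pair them. Values that changed sign belonged to genes that did not pass: in the C/EBPα knockout Mest (0.16 with equal totals) and Plagl1 (-0.20 to 0.49 without single libraries); in the HNF4α knockout Plagl1 (-0.067 with equal totals, -0.28 to 0.38 without single libraries), Cdkn1c (-1.33 to 1.13) and H19 (-0.049 to 1.497); between the knockouts Plagl1 (-0.085 with the block, -0.21 without both, -0.21 to 0.43 without single libraries) and Dlk1 (-1.18 to 0.0027). The cause of these moves was not tested. With a window of 1 kb C/EBPα was near 4 members at any stage and 1 at every stage (by stage 1, 3, 3, 2 and 2), and HNF4α near 2 and 0 (2, 0, 1, 0 and 0). With 25 kb the members bound at every stage were 5 and 4, and HNF4α was near 6 at E18.5, 7 at P14 and 5 at P60. With 100 kb both factors were near 9 or 10 members at nearly every stage. With a peak of either replicate HNF4α was near 5 at E18.5 and 4 at P60. Precision is limited by 2 or 3 libraries per group: the SE of log2 changes was 0.38 to 1.35.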
